A study of Mus musculus with 2 samples.

Results

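Glycolysis turns glucose into pyruvate in a fixed series of enzyme steps, and pyruvate is either burned in mitochondria or turned into lactate and exported. When oxygen falls, prolyl hydroxylases stop marking hypoxia-inducible factor (HIF) alpha subunits for degradation, and the stabilised factor raises transcription of glucose transporters, glycolytic enzymes, angiogenic factors such as *Vegfa*, mitophagy receptors and collagen prolyl hydroxylases. Heart valve leaflets carry few vessels and are supplied with oxygen largely by diffusion. Described here are 38 genes of this system: the transporters and enzymes from glucose entry to lactate export, the HIF subunits and their hydroxylases, and known HIF targets. They were chosen by gene symbol out of 32285 features, and all 38 symbols were found (39 rows, since *Aldoa* has a second row that held no UMI). Over all kept cells 35 of the 38 genes reached 100 unique molecular identifiers (UMIs, 1 per captured RNA molecule), and *Aldoc*, *Ankrd37* and *Car9* did not.

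The cells came from mitral valve leaflets of mice 12 weeks old, and the question was how valve cells of mgR mice differ from those of WT mice. The WT group was *Fbn1* wild type littermates. The mgR group was homozygous for the mgR allele, a neo cassette in an intron of *Fbn1* that lowers fibrillin-1 and deletes no coding sequence. No drug was given to either group. Leaflets were digested with collagenase and elastase, viable cells were sorted, and 1 library per genotype was made with droplet capture of 3-prime ends. The labels do not give the number of mice behind each library. Male mice are named in the methods for experimental comparisons, but the libraries held cells of both sexes. Of the WT library, 28.1% of cells held *Xist* without Y-linked RNA and 38.5% the reverse. Of the mgR library, these shares were 60.8% and 21.1%. For this reason ratios are also given within the sexes.

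Sequencing gave 1104 barcodes with 5381844 UMIs for WT and 3802 barcodes with 28215539 UMIs for mgR, and 875 and 3438 of these barcodes were kept as cells (200 to 5000 genes, mitochondrial UMIs at most 10%). Median depth was 5033 UMIs per cell in WT and 7370 in mgR, and 2 barcodes occurred in both libraries. *Fbn1*, the targeted gene, had 289 UMIs in WT fibroblasts and 836 in mgR fibroblasts, or 171 and 135 CPM (UMIs of the gene per 1000000 UMIs of the class). The ratio was 0.791 (95% interval 0.691 to 0.907). The paper describes *Fbn1* mRNA as severely reduced in homozygous mgR mice, a stronger fall than this ratio. The reason for the difference was not tested. All intervals given here are exact, at 95%, and cover counting error only. With 1 library per genotype there is no replicate check, no test was possible and no P value is given. Genotype, library, depth and the mix of sexes cannot be told apart.

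Cells were sorted into 4 classes by marker UMIs: fibroblast (at least 10 UMIs of *Col1a2*, *Col3a1* and *Dcn*), macrophage (at least 10 of *C1qa*, *C1qb* and *C1qc*), endothelium (at least 2 of *Pecam1* and *Cdh5*) and dendritic (at least 2 of *Cd209a*). Only cells that met exactly 1 rule were used: 322 WT and 878 mgR fibroblasts, 220 and 1524 macrophages, 29 and 150 endothelial cells, and 31 and 73 dendritic cells. Markers outside the rules were highest in their own class. Fibroblast markers such as *Pdgfra* and *Lum* summed to 4198 and 4050 CPM in fibroblasts and at most 380 CPM in the other 3 classes, macrophage markers such as *Csf1r* to 2750 and 3181 CPM in macrophages, endothelial markers such as *Kdr* to 1335 and 1360 CPM in endothelium, and dendritic markers such as *Flt3* to 2574 and 2369 CPM in dendritic cells. The endothelial class was less clean, since 51.7% of WT and 68.6% of mgR cells meeting the endothelium rule met another rule too. Those that also met the fibroblast rule (28 and 304 cells) held 1667 and 1908 CPM of endothelial markers and 1450 and 845 CPM of fibroblast markers. Whether they are doublets or 1 cell type was not tested. Endothelial results rest on few cells and are given for the wider class as well.

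The core letters of the HIF response element, ACGTG and GCGTG, were looked for in the 250 bases before annotated RefSeq start sites (GRCm38.p6), on both strands. A CACGTG run matches on either strand and was counted at both positions. Windows were at hand for 32 of the 38 genes, 48 windows in all. At least 1 match was present for 30 of the 32 genes (93.75%), compared with 62.0% of 8808 genes that had at least 100 UMIs in the kept cells and 41.5% of all 27025 genes with a window. Counted so, a gene with several starts has more chances of a match. By window the shares were 81.25%, 55.7% and 38.6%, but such genes then weigh more and overlapping windows can share a match. ACGTG was in 52.1% of the set's windows, against 21.8% for genes with 100 UMIs and 16.6% for all genes. GCGTG was in 52.1%, against 44.3% and 28.2%, so the set stood closer to the genes with 100 UMIs for this motif. Median CG dinucleotides per window, on which both motifs depend, were 14 for the 38-gene set, 16 for the genes with 100 UMIs and 6 for all genes. Known HIF targets were chosen for the set, so its higher share is not an independent result. The genes that follow are those whose mgR to WT ratio lay past 1.5-fold in a class described later and whose window held a match outside the annotated gene. In each stretch of 60 bases, written 5′ to 3′ on the gene's strand, capitals mark the matched letters (CACGT and CACGC are the matches on the opposite strand).
Adm (chr7:110627575-110627634, plus strand): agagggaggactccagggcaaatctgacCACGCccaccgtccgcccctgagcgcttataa
P4ha1 (chr10:59323236-59323295, plus strand): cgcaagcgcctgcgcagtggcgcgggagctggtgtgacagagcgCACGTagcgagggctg
Bnip3 (chr7:138909520-138909579, minus strand): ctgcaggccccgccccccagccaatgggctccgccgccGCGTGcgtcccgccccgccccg
Slc2a1 (chr4:119108651-119108710, plus strand): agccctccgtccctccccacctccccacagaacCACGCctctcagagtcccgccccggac
Eno1 (chr4:150236458-150236517, plus strand): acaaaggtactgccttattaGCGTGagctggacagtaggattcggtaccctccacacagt
Pgam1 (chr19:41911755-41911814, plus strand): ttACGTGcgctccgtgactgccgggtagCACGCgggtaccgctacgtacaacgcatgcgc
The 60 bases of *P4ha1* end right before its start site, whereas the match of *Eno1* lies at the far end of its window. *Vegfa* and *Mxi1* had no match in the window of their first start, and the windows in which they had matches lie within the genes. *Ndrg1*, *Ndufa4l2* and *Bnip3l*, also past 1.5-fold in a class, had no window and were not examined. A match is a run of letters and not a shown binding site, and a window without one says nothing of sites further away.

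Glycolysis was the most abundant part of the set in every class. *Gapdh*, which makes NADH in the middle of the pathway, was the highest of the 38 genes in all 4 classes of both libraries, at 425 to 625 CPM. A UMI stands for 1 molecule whatever its length, so levels of different genes can be set side by side here, although capture can differ between genes. In fibroblasts *Aldoa* (aldolase A) had 365 CPM in WT and 329 in mgR, *Ldha* (the lactate dehydrogenase that favours lactate) 270 and 222, and *Pkm* (pyruvate kinase) 219 and 243. In macrophages *Aldoa* stood at 294 and 218 CPM and *Pkm* at 256 and 232. *Ndrg1*, a stress-responsive gene known as a HIF target, was among the 3 highest members in endothelium of both libraries and in WT dendritic cells. Endothelial *Ndrg1* stood at 332 CPM (interval 236 to 453) in WT and 360 (321 to 402) in mgR, and dendritic *Ndrg1* at 259 (202 to 328) and 132 (108 to 160). *Car9*, a carbonic anhydrase often used as a hypoxia marker, was barely seen, with 4 WT and 41 mgR UMIs over all kept cells.

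**Figure D1:**
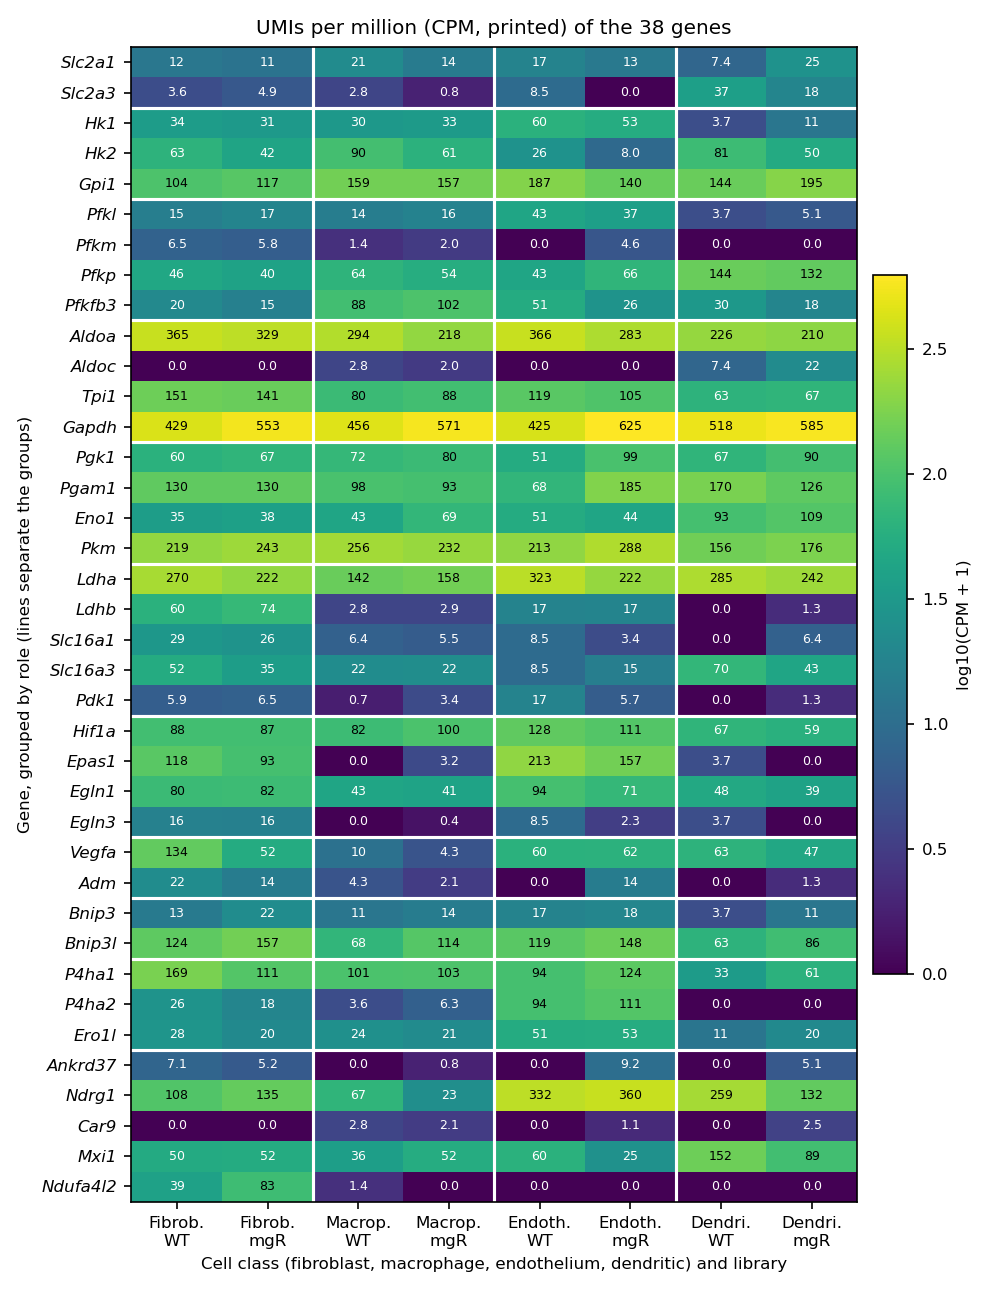
Level of each of the 38 genes (rows, grouped by role) in the 4 classes of each library (columns), with CPM printed in each cell and log10(CPM + 1) as colour. *Gapdh*, *Aldoa*, *Pkm* and *Ldha* are bright in all columns, while *Ldhb*, *Ndufa4l2* and *Slc16a1* are brightest in fibroblast columns and *P4ha2* in endothelial ones.

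Of 33 genes with at least 100 UMIs over the 4 classes, 5 were at least 2-fold higher in 1 class than in each of the other 3 in both libraries, 3 in fibroblasts and 2 in endothelium. Over all 10403 genes with that many UMIs 16.8% met this condition (6.8% for fibroblast, 3.95% for macrophage, 4.17% for endothelium and 1.9% for dendritic), a share close to that of the set. The same condition was met by 0 of the 33 genes in macrophages and 0 in dendritic cells. At a 1.5-fold lead 13 genes qualified, which added among others *Egln3* in fibroblasts, *Pfkfb3* in macrophages, *Epas1* in endothelium and *Pfkp* in dendritic cells. The share of all genes at that lead is not given, so this count is not read as a trait of the set.

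The 3 fibroblast-led genes were *Ldhb*, *Slc16a1* and *Ndufa4l2*. *Ldhb* (chr6:142490249-142507957, minus strand) encodes the lactate dehydrogenase subunit that favours pyruvate. It had 60.4 CPM (49.2 to 73.3) in WT fibroblasts and 74.3 (67.6 to 81.4) in mgR fibroblasts, against 2.85 to 17.2 CPM in macrophages and endothelium, and 0 and 1.27 CPM in dendritic cells. *Slc16a1* (chr3:104638668-104658462, plus strand), the monocarboxylate transporter MCT1 that carries lactate and pyruvate, had 29.0 CPM (21.5 to 38.4) and 26.4 CPM (22.5 to 30.8) in fibroblasts. *Ndufa4l2* (chr10:127514967-127517154, plus strand), a HIF target of mitochondria, had 39.1 and 82.7 CPM there. Outside fibroblasts it was almost absent, with 2 UMIs in WT macrophages and 0 in mgR macrophages, in endothelium and in dendritic cells of either library. The 0 UMIs in mgR macrophages allow up to 0.226 CPM.

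The endothelium-led genes were *P4ha2* (chr11:54100095-54131665, plus strand), a collagen prolyl hydroxylase subunit, and *Pfkl* (chr10:77986947-78010083, minus strand), the liver form of phosphofructokinase. *P4ha2* had 11 UMIs and 93.6 CPM (46.7 to 167) in WT and 97 UMIs and 111 CPM (90.2 to 136) in mgR. *Pfkl* rested on 5 WT UMIs (42.5 CPM, 13.8 to 99.2) and 32 mgR UMIs (36.7 CPM, 25.1 to 51.8). In the wider endothelial class, with cells meeting other rules included, *P4ha2* stood at 75.7 and 74.6 CPM and *Pfkl* at 29.6 and 28.8 CPM, the latter less than 2-fold above the 17.2 CPM of mgR fibroblasts.

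Related genes for the same step split between classes in a way that both libraries shared. *Ldhb* made up 18.3% (15.2 to 21.7) of lactate dehydrogenase UMIs in WT fibroblasts and 25.1% (23.1 to 27.2) in mgR fibroblasts, and 1.97% and 1.78% in macrophages. Of the HIF alpha subunits, *Epas1* (HIF-2 alpha, chr17:86753700-86833410) held 57.5% (52.1 to 62.7) and 51.7% (48.7 to 54.6) of UMIs in fibroblasts and 62.5% and 58.5% in endothelium, the rest being *Hif1a* (HIF-1 alpha, chr12:73901375-73947530). In macrophages *Epas1* held 0 of 115 and 43 of 1369 such UMIs (3.14%), and in dendritic cells 1 of 19 and 0 of 46. *Hif1a* itself ranged from 58.5 to 128 CPM over the classes, and *Epas1* from 0 to 213 CPM.

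Of *Hk1* and *Hk2* UMIs, most were *Hk2*, the inducible form, in macrophages (75.1% in WT, 65.2% in mgR), dendritic cells (95.7% and 81.3%) and fibroblasts (65.2% and 57.7%). In endothelium *Hk1*, the housekeeping form, prevailed, with 46 of 53 UMIs in mgR and 7 of 10 in WT. *Hk3*, outside the set, is not in these shares. In macrophages *Hk3* had 27 WT and 307 mgR UMIs, against 127 and 808 of *Hk2*. It had 0 and 1 in fibroblasts and in dendritic cells. Phosphofructokinase was nearly all *Pfkp*, the platelet form, in dendritic cells (97.5% and 96.3%), whereas fibroblasts held 68.1% and 63.5%. *Pfkm*, the muscle form, stayed under 10% in each class of each library. *P4ha2* and *P4ha1* were even in endothelium (50% and 47.3% *P4ha2*), but *P4ha2* was 13.3% and 13.9% of the pair in fibroblasts and 3.40% and 5.72% in macrophages.

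Among transporters, *Slc2a1* (GLUT1) outnumbered *Slc2a3* (GLUT3) in fibroblasts (20 against 6 UMIs in WT, 66 against 30 in mgR) and macrophages (30 against 4 and 180 against 11). In dendritic cells *Slc2a3* had 10 of 12 UMIs in WT and 14 of 34 in mgR, with intervals (51.6 to 97.9% and 24.6 to 59.3%) that overlap. *Slc16a3* (MCT4, the lactate exporter) led *Slc16a1* in macrophages with 77.5% and 80.3% of the pair, and fibroblasts held both, with 64.0% and 57.2% *Slc16a3*. Transporters outside the set are not in these pairs. In macrophages *Slc16a7* had 43 WT and 408 mgR UMIs, against 31 and 298 of *Slc16a3*, and *Slc2a6* had 18 and 147. In dendritic cells *Slc2a6* had 22 and 44 UMIs. In fibroblasts *Slc16a7* had 43 and 132 UMIs, against 87 and 218 of *Slc16a3*, and *Slc2a6* had 1 and 0. *Bnip3l* outnumbered its mitophagy partner *Bnip3* everywhere (85.6 to 94.4% of the pair), *Egln1* outnumbered *Egln3* (83.3 to 100% of the pair), and *Aldoc* was not seen in fibroblasts (0 of 2035 aldolase UMIs in mgR).

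**Figure D2:**
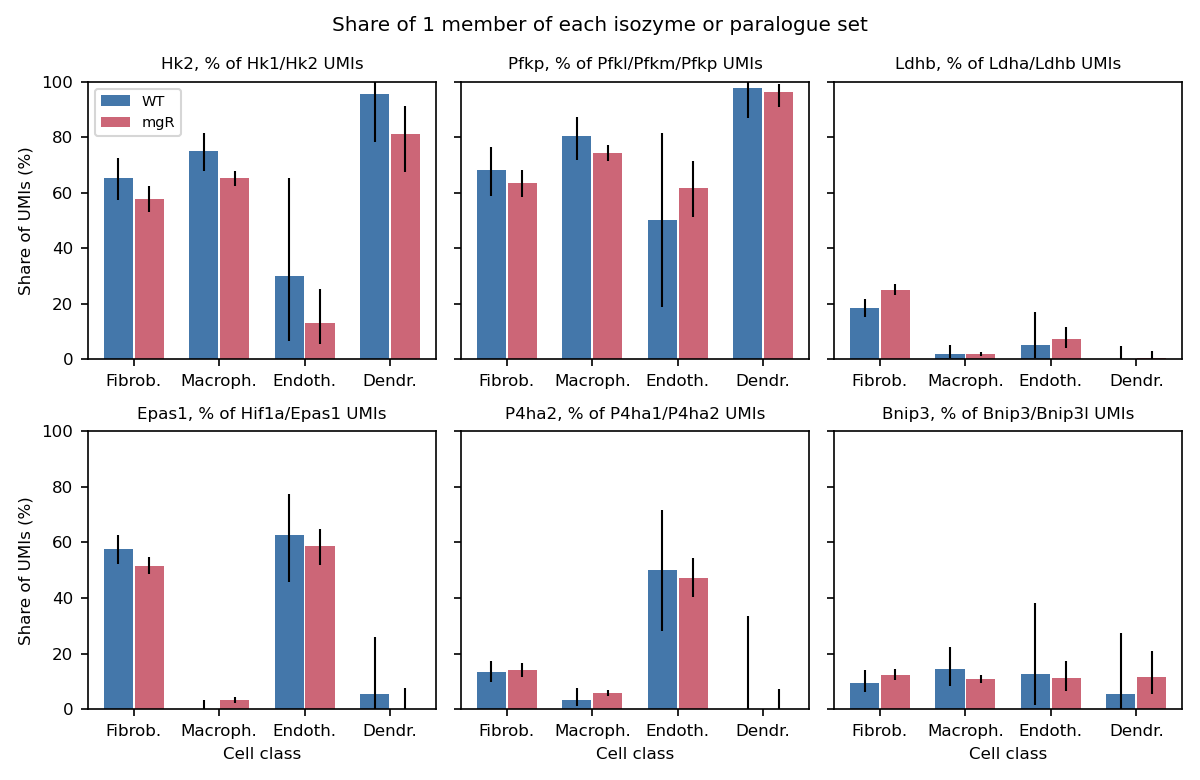
Share (%) of UMIs of 6 isozyme or paralogue sets taken by 1 member, by class, for WT (blue) and mgR (red), with exact 95% intervals as black lines. *Ldhb* reaches 18.3% and 25.1% in fibroblasts and stays under 8% in other classes, and *Epas1* exceeds 50% in fibroblasts and endothelium alone.

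From hexokinase to pyruvate kinase, 13 of the 15 genes had at least 100 UMIs in fibroblasts and none lay past 1.5-fold, with ratios from 0.669 (*Hk2*, 0.532 to 0.846) to 1.29 (*Gapdh*, 1.19 to 1.40). Over the whole set 31 of 38 genes could be compared. Past 1.5-fold, 2 were higher in mgR (6.45%, against 4.43% of all 7457 genes measured in fibroblasts) and 3 lower (9.68%, against 6.03%). The median log2 ratio was -0.045, and -0.042 over all genes. Counts of this size do not set the list apart from other genes, and the description below is of single genes. Cells that also met another rule were set aside more often in mgR (27.4% of fibroblast-rule cells) than in WT (8.78%). With them included, *P4ha1* (log2 ratio -0.54), *Adm* (-0.34) and *Bnip3* (0.56) were no longer past 1.5-fold, while *Vegfa* (-1.40) and *Ndufa4l2* (0.77) were.

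*Vegfa* (chr17:46016993-46032369, minus strand), the main angiogenic growth factor, had the lowest ratio in fibroblasts. It had 226 UMIs in 322 WT cells and 322 UMIs in 878 mgR cells, that is 134 CPM (117 to 152) and 52.1 CPM (46.6 to 58.1), a ratio of 0.389 (0.327 to 0.464). With each cell thinned to 2000 UMIs, 21.9% of WT (17.3 to 27.1) and 9.47% of mgR fibroblasts (7.58 to 11.6) held a *Vegfa* UMI, and without thinning 35.7% and 24.1%. In macrophages 0.467% of cells held a *Vegfa* UMI in each library after thinning, that is 1 of 214 WT and 7 of 1500 mgR cells. Their median depth was higher than that of fibroblasts (5998.5 and 8288 UMIs, against 5182 and 6728). The part of free RNA in the fibroblast values was not tested. In fibroblasts the intervals of the libraries do not overlap for CPM or for the thinned share, and the 10 cells with most *Vegfa* held 22.6% of the WT UMIs.

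*Vegfa* was lower in mgR in every group of fibroblasts examined. In cells with *Xist* alone the ratio was 0.351 (0.262 to 0.476), and in cells with Y-linked RNA alone 0.437 (0.326 to 0.583). Fibroblasts were further split into those with at least 2 UMIs of *Ptx3*, *Igfbp3* and *Smoc2* and under 2 of the other trio, here the Igfbp3 set, and those with at least 2 UMIs of *Fmod*, *Prg4* and *Scx* and under 2 of the first, the Fmod set. Both trios were chosen after results of these data had been seen. The ratio was 0.589 (0.437 to 0.80) in the Igfbp3 set and 0.282 (0.202 to 0.396) in the Fmod set. Summed immediate early and heat shock genes, a sign of dissociation stress, stood at 8708 CPM in WT and 8715 in mgR fibroblasts, and 2 of the 12 genes (*Hspa1a* and *Hspa1b*) were past 1.5-fold lower in mgR.

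*P4ha1* (chr10:59323296-59373304, plus strand), the main catalytic subunit of collagen prolyl 4-hydroxylase, which lets procollagen fold, had 169 CPM (150 to 190) in WT and 111 CPM (103 to 120) in mgR fibroblasts. The ratio was 0.657 (0.572 to 0.757). It was 0.626 (0.495 to 0.792) in Y-linked cells and 0.896 (0.680 to 1.2) in *Xist* cells, 2 intervals that overlap. The other genes of collagen and oxidative folding were also under 1, with *P4ha2* at 0.689 (0.482 to 1.0) and the oxidoreductase *Ero1l* at 0.733 (0.520 to 1.05).

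*Adm*, the vasodilator adrenomedullin, had 37 UMIs in WT and 86 in mgR fibroblasts, with a ratio of 0.635 (0.427 to 0.961). That value rested on few cells: 10 cells held 73.0% of the WT UMIs, and without the 10 highest cells of each library the log2 ratio turned to 0.56. It was 0.276 (0.161 to 0.492) in *Xist* cells and 0.991 (0.509 to 2.0) in Y-linked cells. Just short of 1.5-fold lower were *Hk2*, given above, and *Slc16a3* at 0.685 (0.532 to 0.888).

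Higher in mgR fibroblasts were *Ndufa4l2* and *Bnip3*. *Ndufa4l2* had 66 UMIs in WT and 511 in mgR, a ratio of 2.12 (1.63 to 2.78), and after thinning 6.51% and 12.4% of fibroblasts held a UMI. The ratio was 2.98 (2.03 to 4.53) in Y-linked cells and 1.37 (0.894 to 2.20) in *Xist* cells. It was 2.60 (1.85 to 3.77) in the Igfbp3 set and 0.993 (0.522 to 2.05) in the Fmod set, the latter on 12 and 51 UMIs, and these intervals overlap. *Ndufa4l2* is also known from mural cells, whose markers (*Rgs5*, *Kcnj8*, *Notch3* and *Myh11*) summed to 111 CPM in WT and 132 CPM in mgR fibroblasts, and their part in the result was not tested. *Bnip3*, a receptor of mitophagy, had 22 and 136 UMIs and a ratio of 1.69 (1.07 to 2.78), with its partner *Bnip3l* at 1.26 (1.09 to 1.47). The *Bnip3* ratio was above 1 in both sexes, at 2.73 (1.03 to 10.2) in *Xist* cells and 1.55 (0.759 to 3.42) in Y-linked cells. It was 1.11 (0.516 to 2.65) in the Igfbp3 set and 2.10 (0.905 to 5.98) in the Fmod set.

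The HIF subunits and their hydroxylases moved little in fibroblasts. *Hif1a* had 87.6 CPM in WT and 87.2 in mgR (ratio 0.995, 0.828 to 1.2), *Egln1* 79.9 and 81.9, and *Egln3* 16.0 and 15.7. *Epas1* was lower at 118 and 93.2 CPM, with a ratio of 0.787 (0.669 to 0.929). These are RNA levels, and HIF activity is set mainly by protein stability, which was not measured.

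**Figure D3:**
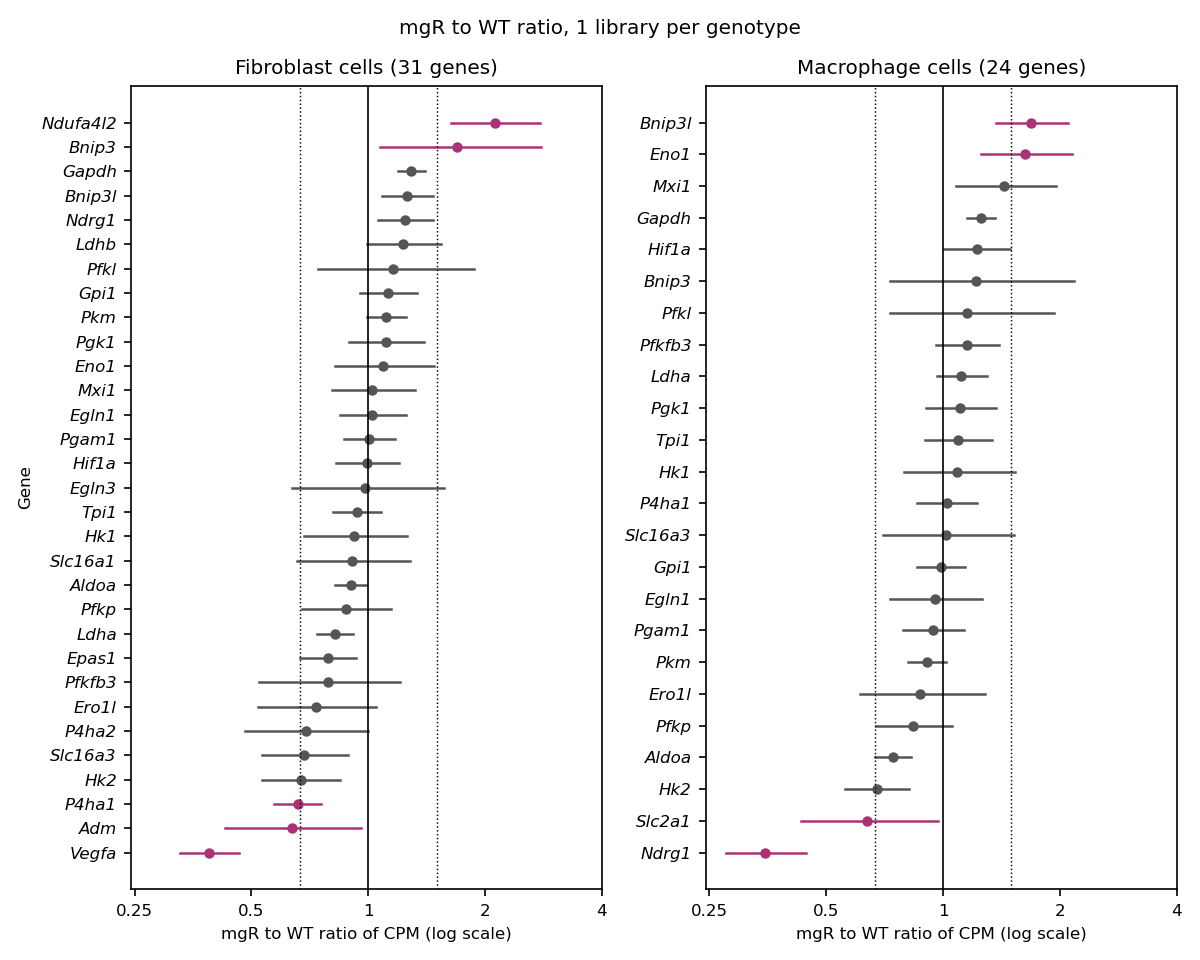
Ratio of mgR to WT CPM (log scale) for the 31 fibroblast and 24 macrophage genes with at least 100 UMIs in the class, with exact 95% counting intervals. Purple points lie past 1.5-fold (dotted lines). *Vegfa* at 0.389 and *Ndrg1* at 0.348 are the lowest of the 2 panels, and most glycolysis genes lie near 1.

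In macrophages 24 of 38 genes could be compared, and 2 were past 1.5-fold in each direction (8.33%, against 12.2% of all 7915 genes higher and 5.34% lower). The median log2 ratio was 0.067, and 0.11 over all genes. With all genes set to a median of 0, the split became 1 higher and 3 lower. Red cell haemoglobin UMIs were more abundant in mgR macrophages (1172 CPM, against 194 in WT), as were neutrophil markers (104 against 17.8), and stress genes were lower (6616 against 7934). The part of these in the following results was not tested.

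*Ndrg1* (chr15:66929318-66969640, minus strand) had the lowest ratio of the set. It had 94 UMIs in 220 WT macrophages and 309 UMIs in 1524 mgR macrophages, or 67.0 CPM (54.1 to 81.9) and 23.3 CPM (20.8 to 26.1), a ratio of 0.348 (0.276 to 0.443). In WT 10 cells held 54.3% of these UMIs, and without the 10 highest cells of each library the log2 ratio was -0.98. The mix of macrophages differed as well. Those with at least 2 UMIs of *Lyve1*, *Folr2* and *Cd163* and under 2 of *Cx3cr1* and *Cd72* (the Lyve1 set) were 28.6% of WT and 48.8% of mgR macrophages, and the opposite Cx3cr1 set 38.2% and 21.2%. *Ndrg1* was lower in mgR within both, at 0.350 (0.178 to 0.769) and 0.571 (0.402 to 0.826). It was also lower in *Xist* cells (0.278, 0.201 to 0.392) and in Y-linked cells (0.391, 0.244 to 0.638).

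*Bnip3l* (chr14:66985239-67008877, minus strand), the mitophagy receptor also called NIX, was higher in mgR macrophages, with 67.7 CPM in WT and 114 in mgR and a ratio of 1.68 (1.37 to 2.10). It was 2.20 (1.47 to 3.45) in *Xist* cells, 1.61 (1.17 to 2.26) in Y-linked cells, 1.33 (0.948 to 1.92) in the Lyve1 set and 2.06 (1.40 to 3.13) in the Cx3cr1 set. *Bnip3l* is also abundant in maturing red cells. The haemoglobin UMIs given above were higher in mgR macrophages too, and their part in this ratio was not tested. *Eno1* (enolase 1, chr4:150236721-150248879) had 42.7 and 69.4 CPM, a ratio of 1.62 (1.25 to 2.15), and 4 of 4 splits by sex and by set were above 1, from 1.52 to 2.43. *Eno1* reads can be shared with a near-identical copy, *Eno1b*, which had 2 and 17 UMIs in macrophages, and *Gapdh* has many processed copies, so both levels are uncertain to that extent.

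*Slc2a1* (chr4:119108711-119137983, plus strand), which outnumbered *Slc2a3* there, had 30 and 180 UMIs in macrophages, or 21.4 and 13.6 CPM, with a ratio of 0.635 (0.430 to 0.969). In the Lyve1 set WT held 1 UMI, so no ratio is read there. In the Cx3cr1 set it was 0.80 (0.464 to 1.45). *Hk2* stood just inside the 1.5-fold line at 0.674 (0.558 to 0.819) and was 0.511 (0.391 to 0.678) in the Lyve1 set and 0.481 (0.322 to 0.731) in the Cx3cr1 set, lower within each set than over all macrophages. *Aldoa* had 0.742 (0.669 to 0.825) and *Gapdh* 1.25 (1.15 to 1.36), so members of 1 pathway lay on both sides of 1.

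**Figure D4:**
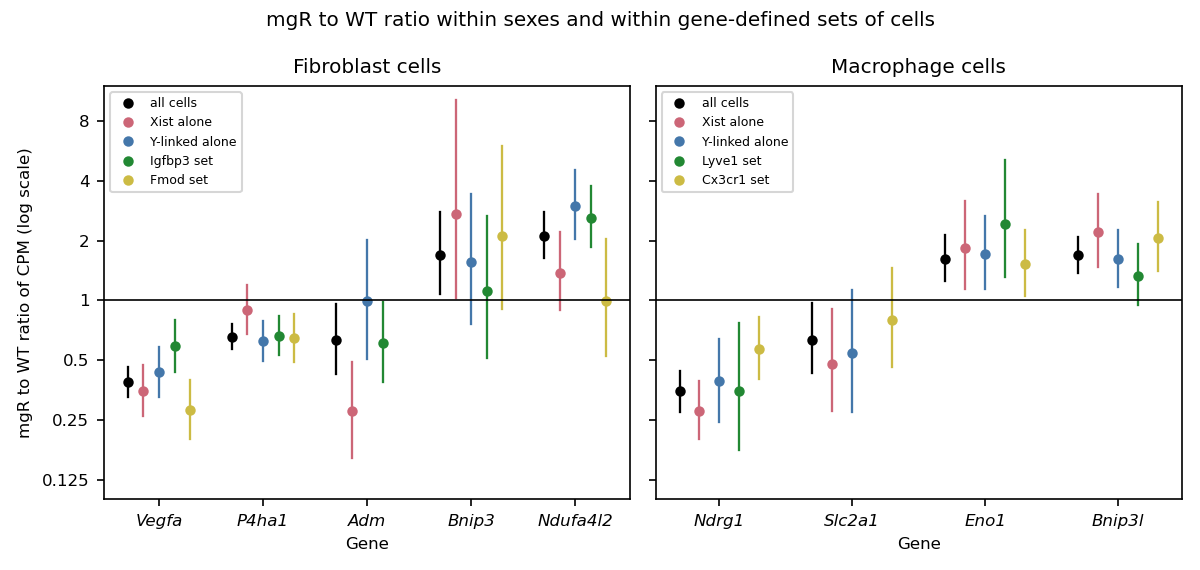
Ratio of mgR to WT CPM (log scale) of the genes past 1.5-fold in fibroblasts (left) and macrophages (right), over all cells of the class (black), in cells of each sex and in the sets named in the legend, with exact 95% intervals. Values with under 3 UMIs in a library are not drawn. *Vegfa* and *Ndrg1* lie under 1 in every group, whereas *Ndufa4l2* is at 2.60 in the Igfbp3 set and 0.993 in the Fmod set.

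For some genes the sets of cells within a class lay further apart than the libraries did. In macrophages the Lyve1 set held more *Pfkfb3*, which makes the activator of phosphofructokinase, than the Cx3cr1 set, at 165 against 42.9 CPM in WT (ratio 3.86, 2.39 to 6.39) and 138 against 38.1 in mgR (3.63, 2.97 to 4.47). *Hk2* was higher there as well, by 2.55 (1.66 to 3.97) in WT and 2.71 (2.15 to 3.46) in mgR. *Slc2a1*, *Slc16a3*, *Ndrg1*, *Gapdh* and *Gpi1* were lower in the Lyve1 set in both libraries, with *Slc16a3* at 0.301 (0.0749 to 0.899) and 0.368 (0.275 to 0.492). *Vegfa*, near absent from macrophages, had 0 UMIs in the WT and 3 in the mgR Lyve1 set, and 12 and 21 in the Cx3cr1 set.

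In fibroblasts the Igfbp3 set held more *Hk2* than the Fmod set, at 121 against 22.6 CPM in WT (5.36, 2.83 to 11.2) and 86.3 against 11.5 in mgR (7.49, 4.86 to 12). *Ndufa4l2* was 2.53 (1.29 to 5.32) and 6.63 (4.91 to 9.10) times as high, and *Epas1* 1.64 (1.13 to 2.41) and 2.02 (1.63 to 2.52). *Adm* was concentrated there too, with 30 UMIs against 1 in WT and 57 against 9 in mgR. The triose isomerase *Tpi1* went the other way, at 0.673 (0.492 to 0.917) and 0.625 (0.525 to 0.742). For *Vegfa* the ratio of the Igfbp3 set to the Fmod set was 0.856 (0.603 to 1.21) in WT and 1.79 (1.34 to 2.39) in mgR, and these intervals do not overlap.

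In endothelium 13 of 38 genes could be compared. Past 1.5-fold, 1 was higher in mgR (7.69%, against 13.1% of 1748 genes) and 0 were lower (against 6.35%). This was *Pgam1* (phosphoglycerate mutase 1, chr19:41911923-41918660), with 8 UMIs in 29 WT cells and 161 in 150 mgR cells and a ratio of 2.71 (1.34 to 6.39). In the wider endothelial class it had 30 and 519 UMIs and a ratio of 1.63 (1.13 to 2.44). The log2 ratio was 1.36 over the 29 and 150 cells, 0.45 with cells thinned to 2000 UMIs, 0.35 with the marker thresholds doubled and -0.16 in Y-linked cells, on 5 and 26 UMIs. T cell markers were at 0 in WT and 96.3 CPM in mgR endothelium, and B cell markers at 0 and 49.3, and their part in the result was not tested. *Gapdh* was 1.47 (1.1 to 2.0), *Pkm* 1.35 (0.896 to 2.13), *Aldoa* 0.774 (0.558 to 1.1) and *Ldha* 0.688 (0.484 to 1.0), so no single direction held for the pathway.

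In dendritic cells 10 of 38 genes could be compared, with 0 past 1.5-fold higher (5.33% of 1352 genes) and 2 lower (20%, against 7.77%). *Ndrg1* had 70 and 104 UMIs and a ratio of 0.510 (0.373 to 0.701). Within the sexes it was 0.994 (0.586 to 1.77) in *Xist* cells and 0.323 (0.192 to 0.534) in Y-linked cells. *Mxi1*, an antagonist of Myc, had 41 and 70 UMIs and 0.586 (0.393 to 0.884), and 10 cells held 82.9% of its WT UMIs. Without the 10 highest cells of each library its log2 ratio turned to 0.26. T cell markers stood at 85.2 CPM in WT and 3.82 in mgR dendritic cells, and their part was not tested. Glycolytic genes were closer to even, with *Gapdh* at 1.13 (0.932 to 1.37), *Gpi1* at 1.35 (0.943 to 1.97) and *Ldha* at 0.847 (0.647 to 1.12).

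Other genes of the same pathways were compared in the same way. Of 27 further glycolysis genes, among them *Hk3*, *Eno2*, the mitochondrial pyruvate carriers and pyruvate dehydrogenase subunits, 7 could be compared in fibroblasts, 10 in macrophages and 2 in each of the other classes, and none lay past 1.5-fold. Of all genes, 4.43% were higher and 6.03% lower in fibroblasts, and 12.2% and 5.34% in macrophages. The shares were 13.1% and 6.35% in endothelium, and 5.33% and 7.77% in dendritic cells. With so few genes compared, a count of 0 does not set them apart from other genes. Of 26 further hypoxia-response genes 16 could be compared in fibroblasts, where 0 were higher (4.43% of all genes measured there) and 3 lower (6.03%). These were the lysyl hydroxylase *Plod1* (62.2 and 30.7 CPM, ratio 0.495, 0.388 to 0.634), the lipase inhibitor *Angptl4* (91.8 and 49.7 CPM, 0.541, 0.445 to 0.661) and the histone demethylase *Kdm3a* (0.664, 0.502 to 0.887). In macrophages 1 of 15 was higher (*Hif1an*, 1.77, 0.833 to 4.50, against 12.2% of all genes) and 2 lower (5.34%), among them the vasoconstrictor *Edn1* (0.579, 0.417 to 0.821). In endothelium 2 of 5 were higher (13.1% of all genes), the VEGF receptor *Flt1* (672 and 1156 CPM, 1.72, 1.37 to 2.19) and its ligand *Pgf* (1.79, 0.836 to 4.58), and 1 was lower (6.35%), *Cited2* (0.643, 0.403 to 1.07). In dendritic cells 0 of 2 lay past 1.5-fold.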

How the data were processed

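The authors sequenced 10x Genomics 3-prime version 3 libraries of mitral valve cells and deposited the counts of UMIs per gene and barcode, 1 matrix per genotype. Cell Ranger 7.1.0 and the build mm10 are named in the submitters' processing notes, and which annotation was used and how intronic reads were counted are not given in the sources used here. The study's cell filters were applied to the deposited counts (200 to 5000 genes, at most 10% mitochondrial UMIs). Doublets were not called, and cells meeting more than 1 marker rule were set aside. No column of per-sample values was left out.

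UMIs were summed per class and library with Python 3.11.15, numpy 2.4.6, scipy 1.17.1 and pandas 2.3.3, and divided by the class total (CPM). Intervals are exact: Poisson for CPM, Clopper-Pearson for shares and conditional binomial for ratios, at 95%. They cover counting error only. A gene was compared in a class when it had at least 100 UMIs over both libraries, which mgR cells dominate, and past 1.5-fold was judged on log2 ratios with a prior count of 0.5. Cells were thinned to 2000 UMIs for shares of cells, and the limit that 0 UMIs allow was set at 3 UMIs. Interval coverage was tested on simulated Poisson counts, the model that the intervals assume. UMIs gathered in few cells were not simulated, so the test does not show coverage for such genes.

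The genes named are those past 1.5-fold in a class, those led by 1 class, the 3 with most UMIs per class and isozymes of 1 step, and further genes are given beside them for comparison. The values of 1 gene of the further hypoxia-response list are not reported here. The gene set, the lists and the rules were chosen with earlier results of these data known. The sets split by Lyve1, Cx3cr1, Igfbp3 and Fmod were added after the values had been seen. Positions are from GENCODE vM21 (GRCm38), matched by gene identifier. Whether counting used strand is not given, so members that overlap a gene of the other strand may hold reads of both: *Hk1*, *Hk2*, *Gpi1*, *Pfkm*, *Pfkp*, *Pfkfb3*, *Aldoa*, *Tpi1*, *Gapdh*, *Hif1a*, *Adm*, *Bnip3*, *Slc2a1*, *Ankrd37*, *Ndrg1*, *Car9*, *Mxi1* and *Ndufa4l2*. Another annotated gene on the same strand overlaps *Slc2a1*, *Slc2a3*, *Slc16a1*, *Pfkm*, *Pfkfb3*, *Pkm*, *Hif1a* and *Epas1*. How reads in those overlaps were assigned is not given either.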

Additional observations from a re-analysis of the deposited data

How the results depend on the processing

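No paired analysis was possible because there was 1 library per genotype and no result comes from a test. Of 780 values of single genes under the alternatives planned, 686 stayed within the counting interval, 91 moved beyond it and 3 changed direction. *Vegfa* in fibroblasts had log2 ratios of -1.52 to -1.19 under its 10 alternatives, *Ndrg1* in macrophages -1.86 to -0.98 and *Ndufa4l2* in fibroblasts 0.43 to 1.56. The directions that changed were *Pgam1* in endothelium (-0.16 in Y-linked cells) and, without the 10 cells with most UMIs of the gene, *Adm* in fibroblasts (0.56) and *Mxi1* in dendritic cells (0.26). Leaving out 10 cells takes a larger share of the smaller WT classes. Of the values within sets, added after the data had been seen, *Ndufa4l2* (-0.055) changed sign in the Fmod set. The values of *Adm* there (0.56) and of *Slc2a1* in the Lyve1 set (1.21) also have the opposite sign, but rest on 1 WT UMI each, and no direction is read from them.

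Counts past 1.5-fold are small and shifted as follows, higher before lower, where they moved. The share of all genes past the fold is not given for these settings. The counts therefore show only how the set's own numbers moved and are not read as results about the set. With all cells meeting a rule, fibroblasts had 1 higher, and endothelium 3 and 1. With marker thresholds doubled, endothelium had 0 and 1 and dendritic cells 1 lower. Thinned to 2000 UMIs, fibroblasts and macrophages had 1 higher each and endothelium 0. Endothelium had 2 and 1 by means of per-cell CPM, and 1 lower with mitochondrial UMIs at most 5%, with a prior count of 2 and after scaling to a median of 0, where macrophages had 1 higher. At 30 UMIs or more, macrophages had 5 and 5, endothelium 2 higher and dendritic cells 1 and 4. With any UMI, macrophages had 6 and 7, endothelium 4 and 9, and dendritic cells 9 and 8. In *Xist* cells fibroblasts had 1 and 1, macrophages 4 higher, endothelium 2 lower and dendritic cells 0 lower. In Y-linked cells fibroblasts had 1 higher, macrophages and dendritic cells 0 lower, where *Ndrg1*, at 80 and 71 UMIs, was under the minimum of 100, and the endothelial median was 1.26 over 1 gene. Genes led by 1 class were 2 in Y-linked cells and 13 at a 1.5-fold lead, again without the share of all genes. The cause of these shifts was not tested.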

Other observations

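Cells that met none of the 4 class rules held other patterns of these genes, given as values without a comparison of genotypes. Cells with *S100a8* and *S100a9* RNA, genes typical of neutrophils (17 in WT and 38 in mgR), had *Slc2a3* at 223 CPM (107 to 411) in WT and 270 CPM (169 to 408) in mgR, where the 4 classes had 0 to 37.0 CPM. Their *Slc16a3* stood at 469 and 368 CPM and their *Pkm* at 782 and 551 CPM. *Ldhb* and *Epas1* were at 0 UMIs in these cells in both libraries.

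Cells with *Cd3* genes, typical of T cells (89 and 148), had *Ldha* at 516 CPM (447 to 593) and 441 CPM (397 to 488). *Ero1l*, an oxidoreductase of protein folding, stood at 154 and 135 CPM in them, and *Pfkp* at 239 and 188 CPM. Cells with pigment genes (22 and 8) had *Ldhb* at 357 CPM (224 to 540) in WT and 540 CPM (302 to 890) in mgR, on 22 and 15 UMIs.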
